A study of Mus musculus with 6 samples.

Results

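The Na,K-ATPase is the sodium pump of the basolateral membrane of kidney tubule cells, and the genes described here are 6 of the genes that build and tune it: the beta subunits Atp1b1, Atp1b2 and Atp1b3 and the FXYD regulators Fxyd1, Fxyd2 and Fxyd5. They were taken by gene name alone, and all 6 were found among the 24346 genes of the deposited tables. Kidney messenger RNA came from mice after unilateral nephrectomy (UNX), the removal of 1 kidney, so that no unoperated kidney enters this comparison. The D-serine group (3 libraries) drank water with 0.1% D-serine, the mirror image of the common amino acid L-serine, and the vehicle group (3 libraries) drank water without it. All mice of both groups ate a serine-free diet for 1 week, were operated on, and were killed 2 days later. The labels state neither strain, sex and age nor whether each library is 1 mouse, so p-values measure only the spread between these libraries, which may be technical.

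The pump uses the energy of ATP to move sodium out of the cell and potassium into it, and the sodium gradient it makes drives most reabsorption along the nephron. The alpha subunit is the catalytic chain, the beta subunit is a glycoprotein that the alpha chain needs to fold and to reach the membrane, and FXYD proteins are small membrane proteins that change the affinity and rate of the assembled pump. In the kidney Fxyd2, the gamma subunit, is a regulator of the pump in many tubule segments, Fxyd4 is one of the collecting duct, and mutation of the human gene FXYD2 causes renal magnesium loss.

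FXYD proteins are named for a short shared motif at the start of the segment that spans the membrane. The codons for that motif and the bases around it are shown for the 3 FXYD members, with the 4 codons of the motif in capitals, because the stretch is what places these otherwise unlike genes in a family. The bases are those of GENCODE M21 transcripts on mm10, each read 5′ to 3′ on the gene's own strand.
Fxyd1 (minus strand, chr7:31053443-31053914): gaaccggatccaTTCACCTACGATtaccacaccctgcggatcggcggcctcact
Fxyd2 (plus strand, chr9:45408123-45408331): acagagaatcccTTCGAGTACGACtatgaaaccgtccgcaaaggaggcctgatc
Fxyd5 (minus strand, chr7:31035252-31035407): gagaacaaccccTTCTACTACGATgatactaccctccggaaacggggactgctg
Each stretch holds 1 exon junction, so its span in the genome is longer than the 54 bases printed. Aligned on the motif, Fxyd2 and Fxyd5 share 34 of 54 bases, Fxyd1 and Fxyd2 share 32, and Fxyd1 and Fxyd5 share 30. The motif starts at codon 29 of 92 in Fxyd1, at codon 17 of 64 in Fxyd2 and at codon 136 of 185 in Fxyd5, whose product carries a long outer part before it. Fxyd1 (chromosome 7, 31051678 to 31057199) and Fxyd5 (chromosome 7, 31032722 to 31042481) stand in the same cluster on the minus strand with Fxyd7 between them, and Fxyd2 (chromosome 9, 45399669 to 45410278) lies beside Fxyd6. The beta genes are apart, Atp1b1 on chromosome 1 (164437109 to 164458355), Atp1b2 on chromosome 11 (69599736 to 69605942) and Atp1b3 on chromosome 9 (96332655 to 96364442).

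Levels are given as FPKM, fragments scaled to the length of the transcript and to the mapped fragments of the library, a scale on which genes of different length can be set side by side. Sequencing depth is not in the tables, and steps between small values put it roughly at 7150000 to 7640000 mapped fragments in D-serine libraries and 7720000 to 8560000 in vehicle libraries. The label kidney fitted the markers: Slc34a1, the phosphate transporter of the proximal tubule, lay between 2026 and 2277 FPKM in D-serine libraries and between 2206 and 2590 FPKM in vehicle libraries, and Umod, of the thick ascending limb, between 526 and 962 and between 912 and 1090 FPKM. These are whole-tissue values, in which fewer cells of a type and less RNA per cell cannot be told apart.

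The mean level of Fxyd2 was 1364 times that of Fxyd5 in D-serine libraries and 1811 times in vehicle libraries, and the order of the top 3 was the same in all 6 libraries. Fxyd2 came first, as the 4th or 5th most abundant of all 24346 genes in each library, followed by Atp1b1 and then Atp1b3. Fxyd2 alone held between 0.931% and 0.992% of the FPKM sum of D-serine libraries and between 0.776% and 0.876% of that of vehicle libraries. Fxyd1 and Fxyd5 could not be ordered, since Fxyd1 was the higher of the pair in 3 of 6 libraries. Atp1b2 was below Fxyd5 in all 6 libraries and below Fxyd1 in 5 of 6. The rough totals put Fxyd2 at 33968 to 38945 fragments a library, Atp1b1 at 13646 to 18655 and Atp1b3 at 668 to 877, but Atp1b2 at 23 to 45, Fxyd5 at 14 to 47 and Fxyd1 at 7 to 23, so that the last 3 carry large counting error.

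**Figure D1:**
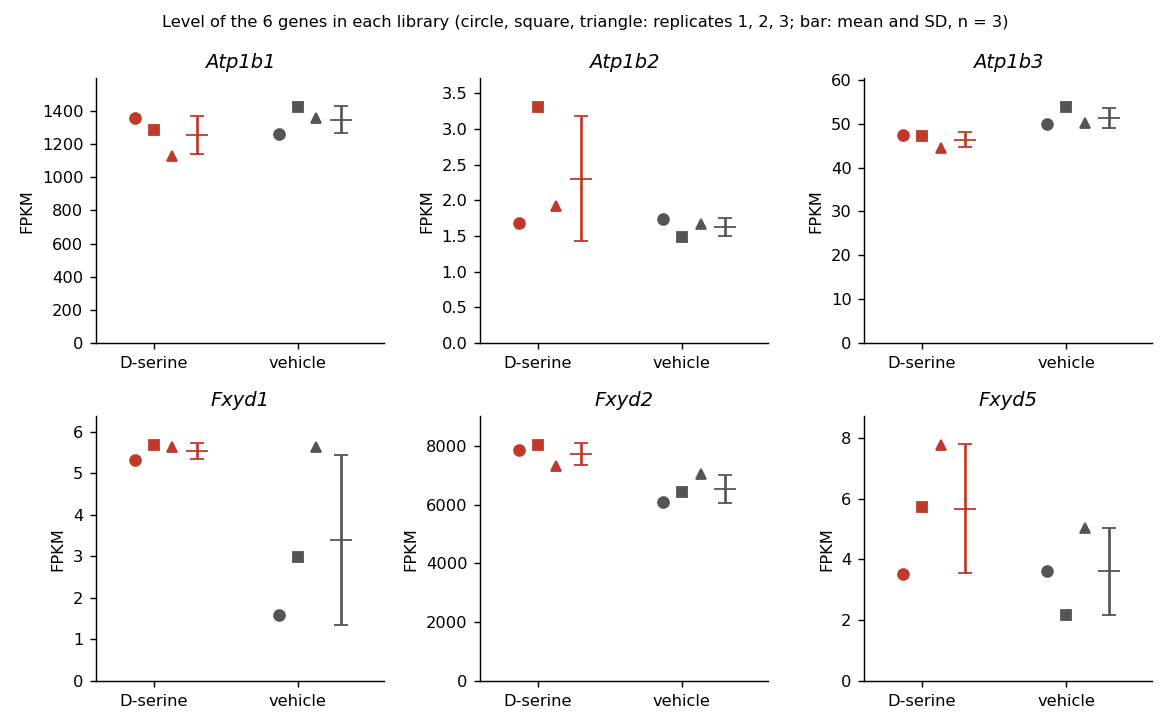
Level in FPKM (vertical axes, from 0) of each of the 6 genes in the 3 D-serine libraries (red, left) and the 3 vehicle libraries (grey, right), with the mean and SD of each group as bars. Fxyd2 lies between 7315 and 8036 FPKM in D-serine libraries and between 6105 and 7045 FPKM in vehicle libraries, Atp1b3 shows the groups apart in the other direction, and the groups overlap for the other 4 genes.

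Whether D-serine went with another level of these transcripts was asked by limma on log2(FPKM + 1), with p-values adjusted by the Benjamini-Hochberg method over the 11737 genes whose mean reached 1 FPKM. All 6 genes met that minimum. At an adjusted p of 0.05, 0 of the 6 passed, beside 0.0767% of all tested genes (9 of 11737, with 0.00852% higher and 0.0682% lower). That total of 9 depended on single libraries, and was 437 without D-serine replicate 3 and 2 without vehicle replicate 3. It also depended on settings, and was 333 without small RNA genes and 132 with a minimum of 5 FPKM, but 8 with quantile normalization. At an unadjusted p under 0.05 there was 1 of the 6, Fxyd2, beside 27.7% of all tested genes. The log2 difference was above 0 for 4 genes and below 0 for 2, beside 5740 and 5997 of the 11737 tested genes. Its median was 0.27, beside a median of -0.0078 over all tested genes. The groups did not overlap for 1 gene that was higher, Fxyd2, and 1 that was lower, Atp1b3, beside 16.5% and 19.4% of all tested genes (35.8% in either direction), so that the count of 2 in 6 is near the background.

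Atp1b1, the main beta subunit of kidney tubules, was at 1356, 1282 and 1127 FPKM in D-serine libraries, against 1262, 1425 and 1355 FPKM in vehicle libraries. The groups overlapped, with D-serine replicate 3 the lowest of the 6 and vehicle replicate 2 the highest. The means were 1255 ± 117 FPKM with D-serine and 1348 ± 81.8 FPKM with vehicle (SD, n = 3 each), a log2 difference of -0.11 with a 95% interval from -0.35 to 0.14 (limma adjusted p = 0.53). It was -0.03 without D-serine replicate 3, -0.16 without D-serine replicate 1, -0.064 without vehicle replicate 2 and -0.17 with quantile normalization. Nme7, on the opposite strand, shares 575 exon bases with Atp1b1 and was at 7.21 to 7.83 FPKM with D-serine and 7.10 to 11.2 FPKM with vehicle. The sources used here do not give whether the authors' estimate used strand.

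Atp1b3, a beta subunit found in many tissues, was at 47.5, 47.2 and 44.4 FPKM in D-serine libraries, against 49.8, 53.9 and 50.2 FPKM in vehicle libraries. Every D-serine value lay below every vehicle value, by a small margin. The means were 46.4 ± 1.72 and 51.3 ± 2.24 FPKM, a log2 difference of -0.14 with an interval from -0.35 to 0.059 (limma adjusted p = 0.31). It was -0.079 with quantile normalization and -0.083 when a trend with the length and GC content of coding transcripts was removed. That coding setting was chosen after seeing the data. With the trend fitted on each gene's longest transcript instead, the difference was -0.16, and with the same FPKM sum it was -0.15. Over the 20 alternatives it lay between -0.16 and -0.079. Atp1b2, known in brain as an adhesion molecule on glia, was near the bottom of the range, at 1.68, 3.31 and 1.92 FPKM in D-serine libraries and 1.73, 1.49 and 1.66 FPKM in vehicle libraries. D-serine replicate 2 stood apart, and the log2 difference of 0.30 (interval -0.16 to 0.76, limma adjusted p = 0.34) was 0.091 without it and 0.18 with weighted libraries.

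The makeup of the beta pool was nearly the same in both groups. Atp1b1 made up 96.5%, 96.2% and 96.1% of the summed beta FPKM in D-serine libraries, against 96.1%, 96.3% and 96.3% in vehicle libraries. Atp1b3 made up between 3.38% and 3.78% with D-serine and between 3.57% and 3.79% with vehicle, and Atp1b2 at most 0.249% and 0.132%. The shares overlapped between groups for all 3 genes.

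Fxyd2 was the gene with the smallest p of the 6. It was at 7842, 8036 and 7315 FPKM in D-serine libraries, against 6105, 6442 and 7045 FPKM in vehicle libraries. Every D-serine value lay above every vehicle value, and the nearest pair were D-serine replicate 3 and vehicle replicate 3. The means were 7731 ± 373 FPKM with D-serine and 6531 ± 476 FPKM with vehicle (SD, n = 3 each), a log2 difference of 0.24 or 1.18-fold, with an interval from 0.017 to 0.47 and a limma adjusted p of 0.16. Without any 1 library the difference lay between 0.20 and 0.30. It was 0 under quantile normalization, which leaves only ranks, and Fxyd2 held rank 4 or 5 in each of the 6 libraries. It was 0.13 (adjusted p = 0.46) with a trend on the longest transcript's length and GC content removed, and 0.04 (adjusted p = 0.82) with the trend on coding transcripts removed.

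Fxyd1, phospholemman, is the FXYD protein of heart and muscle and a target of protein kinases A and C. It was at 5.33, 5.69 and 5.62 FPKM in D-serine libraries, against 1.59, 2.99 and 5.62 FPKM in vehicle libraries. The D-serine libraries lay close together, whereas vehicle replicate 3 reached the D-serine level and vehicle replicates 1 and 2 did not. The log2 difference of 0.68 had an interval from -0.036 to 1.39 (limma adjusted p = 0.20). It was 0.35 without vehicle replicate 1 and 1.03 without vehicle replicate 3, and 0.44 with the coding length and GC trend removed.

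Fxyd5, dysadherin, a regulator of the pump that also affects cell adhesion, was at 3.51, 5.73 and 7.77 FPKM in D-serine libraries, against 3.63, 2.17 and 5.03 FPKM in vehicle libraries. The groups overlapped, with D-serine replicate 1 below 2 of the vehicle libraries. The log2 difference of 0.53 had an interval from -0.18 to 1.24 (limma adjusted p = 0.28), and it was 0.31 without D-serine replicate 3 and 0.28 without vehicle replicate 2. Mir7050, inside Fxyd5 on the same strand, was listed at 0 in all 6 libraries. Against the abundance of Fxyd2 both genes were minor: of the summed FPKM of the 3 FXYD members, Fxyd2 made up between 99.8% and 99.9% in each of the 6 libraries.

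**Figure D2:**
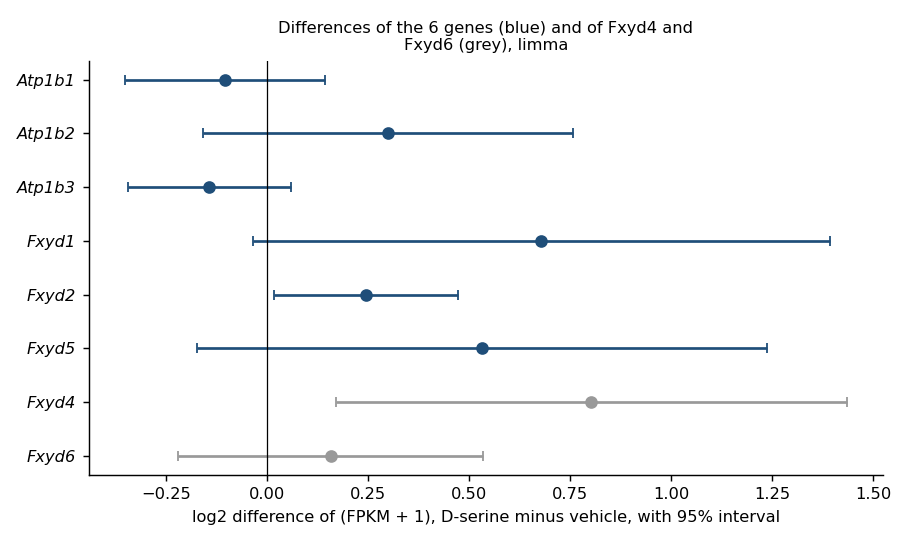
Log2 difference of (FPKM + 1), D-serine minus vehicle (horizontal axis), with its 95% interval from limma, for the 6 genes (blue) and for Fxyd4 and Fxyd6 (grey). Among the 6, the interval of Fxyd2 (0.017 to 0.47) lies above 0 and the other 5 include 0. None of the 8 genes passed at an adjusted p of 0.05.

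Other genes of these families were read beside the members. Fxyd4, the FXYD protein of the collecting duct, was at 145, 194 and 94.6 FPKM in D-serine libraries, against 62.6, 82.3 and 96.3 FPKM in vehicle libraries. Only D-serine replicate 3 fell within the vehicle range, and the log2 difference was 0.80 (interval 0.17 to 1.43, limma adjusted p = 0.12). Over the 20 alternatives it lay between 0.56 and 1.08, with an adjusted p from 0.051 to 0.32. Of the sum of all 7 FXYD genes, Fxyd4 made up 1.82%, 2.36% and 1.27% in D-serine libraries and 1.01%, 1.26% and 1.35% in vehicle libraries. Fxyd6 was at 1.06 to 1.72 FPKM with D-serine and 1.003 to 1.33 FPKM with vehicle (log2 difference 0.16, limma adjusted p = 0.54). Fxyd3, Fxyd7 and the beta-type gene Atp1b4 were each at 1.603 FPKM or below in every library, and Atp1b4 was listed at 0 in all 6.

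The ratio of Fxyd2 to Atp1b1, which are both abundant, was taken in each library, a measure chosen after the values were seen and given with no test. It was 5.78, 6.27 and 6.49 in D-serine libraries, against 4.84, 4.52 and 5.20 in vehicle libraries. The mean ratio was 6.18 ± 0.362 with D-serine and 4.85 ± 0.340 with vehicle (SD, n = 3 each), and the groups did not overlap. No share of non-overlapping ratios was taken over other gene pairs. Coding transcripts had a median length of 650 bases for Fxyd2 and 1604 for Atp1b1. The log2 differences of 0.24 and -0.11 became 0.13 and -0.10 with the trend on the longest transcript removed. They became 0.04 and -0.10 with the trend on coding transcripts removed. The part of transcript length in the ratio was not tested.

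Transcript length moved with the difference between groups across the whole table. By the longest annotated transcript, genes under 1 kb had a median log2 difference of 0.26 (679 genes, 77.5% of them above 0), those of 1 to 2 kb 0.099, those of 2 to 4 kb -0.0035, and those over 4 kb -0.094 (3956 genes, 35.1% above 0). FXYD messages are short. The median length of the protein-coding transcripts was 537 bases for Fxyd1, 650 for Fxyd2, 803 for Fxyd5 and 628 for Fxyd4, against 1604 for Atp1b1, 1918 for Atp1b2 and 1994 for Atp1b3. Classed by that length, genes under 1 kb had a median log2 difference of 0.11 and 26.8% of them lay higher with no overlap, whereas genes of 2 to 4 kb had a median of -0.050 and 24.1% lay lower with no overlap. The class of 1 to 2 kb, which holds Atp1b1, Atp1b2 and Atp1b3, had a median of 0.023. In that class 18.8% lay higher and 15.7% lower with no overlap. With the trend on the longest transcript removed, the log2 difference was 0.13 for Fxyd2, 0.46 for Fxyd1, 0.53 for Fxyd5 and 0.67 for Fxyd4. With the trend on coding transcripts removed, a setting chosen after seeing the data, it was 0.04, 0.44, 0.40 and 0.68 in the same order. The part of transcript length in these differences was not tested.

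**Figure D3:**
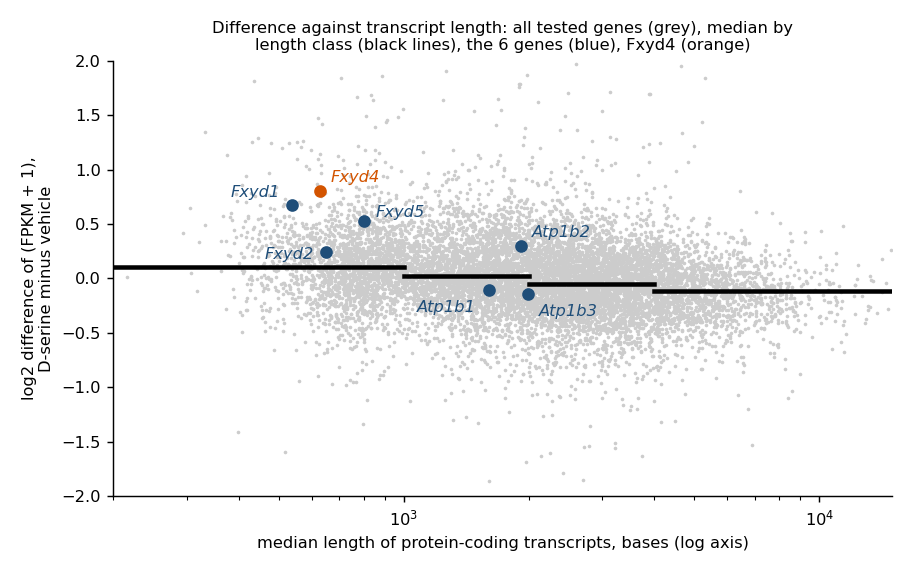
Log2 difference of (FPKM + 1), D-serine minus vehicle (vertical axis), against the median length of a gene's protein-coding transcripts in bases (horizontal log axis), for 10815 tested genes (grey, 19 of them outside the axes). Black lines are the medians of 4 length classes, which run from 0.11 under 1 kb to -0.12 over 4 kb. The short genes Fxyd1, Fxyd2, Fxyd5 (blue) and Fxyd4 (orange) lie above 0. Of the longer beta genes (blue), Atp1b2 also lies above 0, at 0.30, whereas Atp1b1 and Atp1b3 lie below it.

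Lists of the pump's regulators and of the transport it powers had 0 members that passed in limma. Of the 15 regulators tested, 2 lay higher and 2 lower with no overlap, beside 16.5% and 19.4% of all tested genes, and the median log2 difference was -0.062. Hsd11b2, which keeps cortisol-type steroids from the mineralocorticoid receptor, averaged 294 FPKM with D-serine and 171 FPKM with vehicle, and the kinase gene Wnk4 91.1 and 66.5 FPKM (limma adjusted p = 0.080 and 0.12). Nr3c1, the glucocorticoid receptor, averaged 7.07 and 9.42 FPKM and Esrrg, an orphan nuclear receptor, 11.7 and 15.5 FPKM. In this list 4 genes had an unadjusted p under 0.05, beside 27.7% of all tested genes.

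Of 11 carriers and channels through which sodium enters from the lumen, 4 were above 0 and 7 below, with a median of -0.060, and 3 had an unadjusted p under 0.05, beside the same 27.7%. In this list 2 lay higher and 1 lower with no overlap, beside 16.5% and 19.4% of all tested genes. Scnn1b and Scnn1g, subunits of the epithelial sodium channel, averaged 52.1 and 31.0 FPKM with D-serine and 33.2 and 20.5 FPKM with vehicle, each with no overlap (limma adjusted p = 0.085 and 0.091). Scnn1a, the alpha subunit of that channel, averaged 85.7 and 65.6 FPKM with overlap. Slc9a3, the sodium-proton exchanger of the proximal tubule, averaged 5.998 FPKM with D-serine and 10.5 FPKM with vehicle, with no overlap (limma adjusted p = 0.085). Leaving out D-serine replicate 1 put the median at 0.15, and leaving out vehicle replicate 1 or 3 put it at 0.0026 or 0.016.

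Of 10 basolateral potassium channels and partner carriers, 1 lay higher and 4 lower with no overlap, beside 16.5% and 19.4% of all tested genes. Their median was 0.0018, and 5 had an unadjusted p under 0.05, beside 27.7% of all tested genes. Among the lower were Kcnj15 (181 FPKM with D-serine and 268 FPKM with vehicle on average, limma adjusted p = 0.089), Kcnj16 (138 and 183 FPKM) and the bicarbonate carrier Slc4a4 (51.6 and 88.4 FPKM). The potassium channel genes Kcnj15 and Kcnj16 are expressed in tubule cells beside the pump. Of the related H,K-ATPase list, Atp4a was the 1 of 3 genes tested, at 14.7 to 17.1 FPKM with D-serine and 15.6 to 18.8 FPKM with vehicle (limma adjusted p = 0.57), and Atp4b was listed at 0. Atp12a, whose mean was below 1 FPKM and which was not tested, was at 1.30, 0.812 and 1.64 FPKM in D-serine libraries, against 0.226, 0.504 and 0.376 FPKM in vehicle libraries, with no overlap.

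Markers of the tubule segments are given beside these genes, with 0 marker genes called in limma in any list. Their counts with no overlap stand beside 16.5% higher and 19.4% lower over all tested genes. Their counts above and below 0 stand beside 5740 and 5997 of the 11737 tested genes. Principal cell markers, a list that holds Fxyd4 itself, were above 0 for 9 of 10 genes, 7 with no overlap, and summed to 753 to 1116 FPKM with D-serine and 535 to 700 FPKM with vehicle. That list also holds Hsd11b2, Scnn1b and Scnn1g, given above, and so repeats their values. Some other segment lists share genes with the lists above too. Intercalated cell markers were above 0 for 11 of 11, 8 with no overlap, at 401 to 548 and 327 to 388 FPKM. Markers of the distal convoluted and connecting tubule were above 0 for 10 of 10, 5 with no overlap, at 9508 to 15822 and 5836 to 7635 FPKM. Most of that sum was Klk1 (6236 FPKM with D-serine and 4121 FPKM with vehicle on average) and S100g (5002 and 2098 FPKM), whereas Slc12a3, the sodium-chloride cotransporter that defines the distal convoluted tubule, averaged 355 and 337 FPKM with overlap. Markers of the S3 proximal tubule were below 0 for 10 of 10, 6 with no overlap, at 1651 to 2448 and 3403 to 3542 FPKM. Those of S1 and S2 were below 0 for 11 of 14, 3 with no overlap, at 11130 to 12542 and 11957 to 13762 FPKM, which overlap. Thick ascending limb markers were above 0 for 5 of 10, with 1 lower with no overlap, at 1083 to 1676 and 1630 to 1867 FPKM, which also overlap. None of these lists had a marker listed at 0 in all libraries, and the part of cell makeup in the values of Fxyd2 and Fxyd4 was not tested.

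Fxyd1 and Fxyd5 are also expressed outside the tubule epithelium, and markers of other cells are given beside them. Counts above 0 stand beside 5740 of the 11737 tested genes. Smooth muscle, pericyte and fibroblast markers summed to 42.4, 79.3 and 61.3 FPKM in D-serine libraries and 28.3, 29.0 and 38.6 FPKM in vehicle libraries, with 8 of 9 tested genes above 0 and 3 higher with no overlap, beside 16.5% of all tested genes. Leukocyte and macrophage markers summed to 36.9, 39.1 and 65.1 FPKM in D-serine libraries and 34.6, 29.96 and 54.7 FPKM in vehicle libraries, with 6 of 7 tested genes above 0 and 1 with no overlap, and Cd3e was listed at 0 in all 6. Most of this sum was Cd74, at 28.8 FPKM with D-serine and 23.8 FPKM with vehicle on average, and Csf1r averaged 3.42 and 5.78 FPKM. Endothelial markers summed to 49.1, 69.6 and 71.3 FPKM in D-serine libraries and 45.4, 33.6 and 58.4 FPKM in vehicle libraries (8 of 10 tested genes above 0, 2 with no overlap), and podocyte markers to 33.7 to 42.0 and 13.6 to 60.3 FPKM (7 of 8 above 0). The part of these cells in the values of Fxyd1 and Fxyd5 was not tested.

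The genes whose profile over the 6 libraries was most like each member were found among genes of at least 5 FPKM by the root mean square difference of log2 profiles, each centred on its mean, as a description with no test. For Fxyd2 they were Park7 (0.020), Rpl19 (0.024) and Gstt3 (0.024). For Atp1b1 they were Gorasp2 (0.024), Tmed10 (0.027) and Carkd (0.030). For Atp1b3 they were Ppig (0.023), Wdr1 (0.026) and Exoc3 (0.026), and for Atp1b2 Ndor1 (0.012), Top3b (0.039) and Trim3 (0.047). For Fxyd1 the nearest were Gm12070 (0.15), Defb19 (0.16) and Ucp2 (0.17) and for Fxyd5 Aldh3b1 (0.18), Chrna4 (0.21) and Snhg5 (0.21). These values are not comparable between members, because the profiles themselves differ in spread, with an SD over the 6 libraries of 0.085 for Atp1b3, 0.11 for Atp1b1, 0.14 for Fxyd2, 0.26 for Atp1b2, 0.47 for Fxyd5 and 0.52 for Fxyd1.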

How the data were processed

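The values are FPKM, which the authors deposited as 1 table per library. TopHat2 2.0.13, Bowtie2 2.2.3, SAMtools 0.1.19 and Cufflinks 2.2.1 and the build mm10 are named in the submitters' processing notes. Per the labels' protocols, libraries were made with a TruSeq stranded mRNA kit from TRIzol-extracted RNA. FPKM is relative to the library total, so very abundant genes press on all others, and Cufflinks can list a gene at 0 when its estimate fails. The sources used here do not give the annotation or strand setting.

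The groups were compared with limma 3.58.1 in R 4.3.3 (mean-variance trend, log2(FPKM + 1), two-sided, Benjamini-Hochberg, threshold 0.05) over 11737 genes whose mean reached 1 FPKM; the pseudocount understates changes of low genes. A permutation test of 3 against 3 libraries cannot reach 0.05 and was not used. Gene models came from GENCODE M21 by symbol: a longest transcript was found for 11309 tested genes (96.4%) and coding transcripts for 10815 (92.1%), and loess trends used a span of 0.5. Rough depths rest on whole steps between low values in 122 genes with 1 transcript and on their annotated lengths. Named were the members, other pump and FXYD genes, up to 4 genes of smallest p in each other pathway list, profile neighbours and overlapping genes. Single marker genes were named after their values were seen. Some genes of these lists are not reported here. The members and lists were chosen with earlier results of these data known.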

Additional observations from a re-analysis of the deposited data

How the results depend on the processing

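None of the 6 genes passed at an adjusted p of 0.05 in any of the 20 alternatives run (19 for Atp1b2, Fxyd1 and Fxyd5, which do not reach the stricter minimum of 5 FPKM). Each kept the sign of its log2 difference in all of them, except that Fxyd2 was at 0 with quantile normalization. Without 1 library at a time, the log2 difference ranged from -0.16 to -0.030 for Atp1b1, 0.091 to 0.43 for Atp1b2, -0.16 to -0.11 for Atp1b3, 0.35 to 1.03 for Fxyd1, 0.20 to 0.30 for Fxyd2 and 0.28 to 0.79 for Fxyd5. The number of genes called in the whole table, 9, was 171 and 221 with pseudocounts of 0.1 and 0.01 FPKM, 132 with a minimum of 5 FPKM, 269 with weighted libraries, 333 without small RNA genes and 24 once the length and GC trend was removed. It was 238 with the coding length and GC trend removed, an alternative chosen after seeing the data. The fits with a trend removed covered only 11309 (longest transcript) and 10815 (coding transcripts) of the 11737 genes. Their counts therefore cannot be credited to the trend alone. Leaving out 1 library put the number called between 2 and 437. It was 437 without D-serine replicate 3, 24 without D-serine replicate 1, and 4, 3 and 2 without vehicle replicates 1, 2 and 3. No pairing of the libraries by replicate number was seen: the correlation of deviations between equal numbers was -0.070, 0.0031 and 0.067, and not every library was closest to its own number. Deviations within a group of 3 libraries depend on each other, so these values cannot exclude a pairing. With the replicate number as a block 2 genes were called, and 1 when the block was joined with removal of the longest-transcript trend.

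The median of the apical sodium entry list, -0.060, was -0.18 with the length and GC trend removed, with or without the block, and between -0.21 (without vehicle replicate 2) and 0.15 without 1 library. The medians by length class moved by construction when that trend was removed, to 0.092 under 1 kb, -0.026 at 1 to 2 kb and -0.017 over 4 kb, with the same values under the block. With the coding trend they were 0.13, 0.013 and -0.031, and with a minimum of 5 FPKM -0.046 at 2 to 4 kb and -0.14 over 4 kb. No scaling moved the median of all genes by 0.1. Depth limits Fxyd1, Fxyd5 and Atp1b2 most.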
